A study of Mus musculus with 38 samples.

Results

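Gene expression in the forestomach of mice given the highest dose of dibenz(a,h)anthracene (DBahA) was compared with that of vehicle controls. DBahA is a polycyclic aromatic hydrocarbon. The comparison comprised the forestomach arrays labelled D3 and those labelled D0, chosen by sample title, which were 10 of the 38 arrays of the series. The animals were male MutaMouse, a transgenic strain used for mutation assays, aged about 10 weeks. The D3 mice received 25 mg/kg-bw/day DBahA in olive oil by oral gavage for 28 days, and the D0 mice received olive oil alone. Tissue was collected 72 h after dosing ended, so both groups shared the vehicle, the gavage and this interval. D0 held 5 mice (mice 1 to 5). D3 held 5 arrays with 4 mouse numbers (16, 17, 18 and 19), because 2 arrays were labelled mouse 18. These were averaged to 1 mouse, as labelled, and whether they came from 1 extract or 1 animal was not tested. No forestomach array used here was labelled mouse 20. The intermediate groups D1 (6.25 mg/kg-bw/day, 5 mice) and D2 (12.5 mg/kg-bw/day, 4 mice) entered the model and serve for reference.

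Each of 55681 probes gave a log2 ratio in which Cy5, the numerator, was the tissue RNA and Cy3 a universal mouse reference RNA pooled from cell lines. A log2 ratio of 0 therefore means as much signal as in the reference, and a difference of 1 between groups is a doubling. RNA came from random sections of the tissue, in which fewer cells of a type and less RNA per cell cannot be told apart. Mice carried separate numbers in the labels. In the forestomach arrays 30.1% to 60.8% of probes were well above background in Cy5.

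The forestomach is the non-glandular part of the rodent stomach. It is lined by a keratinized squamous epithelium and joins the glandular stomach, whose parietal and chief cells make acid and digestive enzymes, at the limiting ridge. Polycyclic aromatic hydrocarbons bind the aryl hydrocarbon receptor (AhR), which induces Cyp1a1, Cyp1b1 and its own repressor Ahrr. Metabolites of many of them form DNA adducts, and DNA damage stabilizes p53, which induces Cdkn1a, Mdm2 and other genes. Most tissues also run a circadian clock in which Arntl and Clock activate the Per, Cry and Nr1d genes and Dbp through E-boxes. The transcription factors Dbp, Tef and Hlf in turn activate genes through D-boxes, at which Nfil3 represses.

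The tissue label was first checked against markers. Of 22 genes of squamous epithelium, 19 were well above background on all forestomach arrays of D0 and D3. The mean log2 ratio of this list lay between 3.44 and 4.33 on the D0 arrays and between 3.91 and 4.66 on the D3 arrays, so it was high on every array of both groups. Krt5, a basal keratin, was at 3.08, 3.13, 3.32, 3.64 and 3.42 in D0 mice 1 to 5 and at 3.50, 3.16, 3.15 and 3.03 in D3 mice 16 to 19. Its groups overlapped (log2 fold change -0.09, SE 0.14; 0.50 under median centring in place of loess, where the median of all genes was 0.26). Trp63, the master regulator of stratified epithelia, ranged from 2.87 to 6.36 at D0, with its lowest value in D0 mouse 1, and from 4.60 to 6.38 at D3.

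Glandular stomach was present in some samples and absent from others. A glandular score was formed as the mean log2 ratio of Atp4a and Atp4b, the subunits of the gastric proton pump, and Cblif, the gastric intrinsic factor. The score fell into separate levels, from 5.00 to 7.25 on 13 of the 19 forestomach arrays and from -0.06 to 0.13 on the other 6. At D0 it was 7.25, 0.04, 6.31, 6.39 and 0.07 in mice 1 to 5. At D3 it was 5.86 in mouse 16, 5.00 in mouse 17, 0.13 and 6.96 on the first and second array of mouse 18, and 6.83 in mouse 19. Thus 3 of 5 D0 arrays and 4 of 5 D3 arrays carried glandular stomach, as the plot of the score by array shows. The difference of 1.30 between the group means (4.01 ± 3.63 SD at D0, n = 5, and 5.31 ± 1.39 at D3, n = 4) was within the spread between mice (exact permutation test, two-sided, p = 0.492; the smallest p that its 126 arrangements allow is 0.00794).

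**Figure D1:**
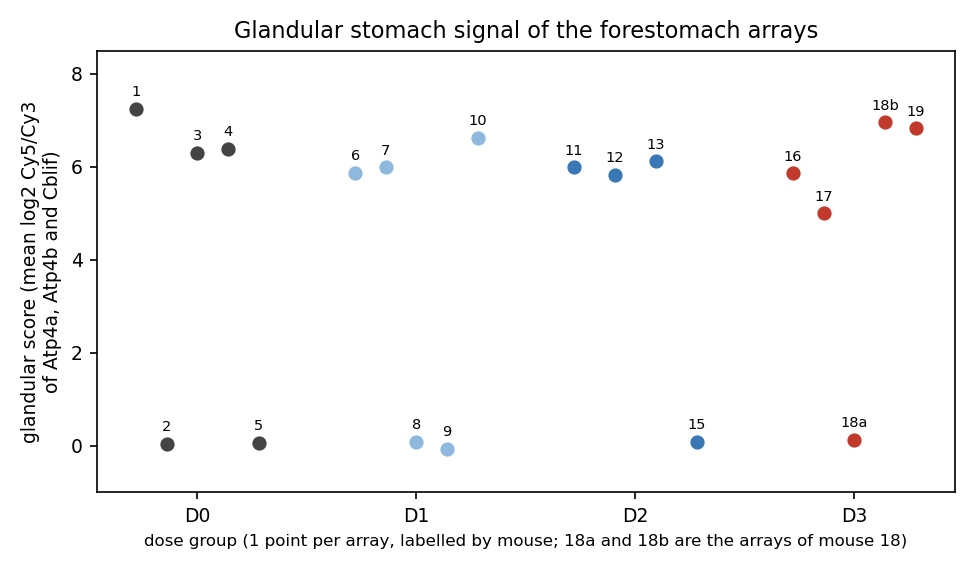
Glandular score (mean log2 Cy5/Cy3 of Atp4a, Atp4b and Cblif) of each forestomach array, by dose group, with the mouse number beside each point. The arrays separate into 13 at 5.00 or above and 6 at 0.13 or below, and the first (18a) and second (18b) array of mouse 18 lie in different sets.

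The log2 ratios of the arrays of mouse 18 correlated with r = 0.775 over all probes. With mouse 18 left out, the lowest r between different D3 mice was 0.839, and all of those arrays carried glandular stomach. The lowest r of the first array of mouse 18 with another D3 mouse is not given. Whether the arrays of mouse 18 differed more than those of different D3 mice was therefore not tested. The first array reached r = 0.898 at most with another D3 mouse, and r = 0.920 and 0.908 with D0 mice 2 and 5, which also lacked glandular stomach. Results were therefore also computed with either array alone, with both as separate samples and without mouse 18. The score was used as a linear covariate, and 358 probes had a slope on it at an adjusted p of at most 0.05 (limma), 316 of them rising and 42 falling with the score. With the covariate the median log2 fold change over 15 measured genes of glandular stomach was 0.08, against 1.13 without it. Atp4a, Atp4b and Cblif, which form the score, are among the 15. Their part of this drop was fixed in advance, and it is no independent check of the covariate.

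To determine whether the highest dose altered expression in the tissue of first contact, D3 was compared with D0 with all dose groups in the fit. A probe was called at an adjusted p of at most 0.05 and a fold change of at least 1.5. No probe was called (0 of 55681, 0%; limma, smallest adjusted p = 0.298). An unadjusted p under 0.05 was found in 2086 of 55681 probes, a share below the 0.05 expected with no change. When only D0 and D3 were fitted, 3 probes (0.00539%) were called, all higher at D3. They were both probes of Dbp and 1 probe that carries the RefSeq accession XR_033677, for which the gene table gave no symbol. None was lower. The fits differ in whether the mice of D1 and D2 add to the estimates of the spread and of the slope on the glandular score.

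Dbp, a clock-controlled transcription factor, had the smallest p among genes with a symbol that were well above background on every array of D0 or of D3. Its log2 ratio was -2.62, -2.31, -2.10, -2.34 and -2.08 in D0 mice 1 to 5. It was 0.10, -0.50, 0.00 and -0.08 in D3 mice 16, 17, 18 and 19. The groups did not overlap, and the arrays of mouse 18 gave -0.27 and 0.28, both above every D0 mouse. The log2 fold change was 2.22 (SE 0.42, 95% interval 1.33 to 3.11; limma, adjusted p = 0.99 with all dose groups and 0.00504 with D0 and D3 alone). The second Dbp probe gave 2.31 (SE 0.46; adjusted p = 0.99 and 0.00708). With D0 and D3 alone no probe was called without D3 mouse 18 (Dbp, 2.17, adjusted p = 0.0517), 1 was called without mouse 16, and 2 or 3 were called without any other mouse.

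Dbp was also the gene in which the dose groups could be followed mouse by mouse. In D1 it was at -1.69, 0.25, -1.52, -1.53 and -1.56 in mice 6 to 10, so mouse 7 stood at the D3 level and the others between D0 and D3. In D2 it was at -1.39, -0.19, -1.66 and 0.53 in mice 11, 12, 13 and 15. All 13 treated mice were above the highest D0 mouse. The log2 fold change was 1.07 at D1 and 1.63 at D2, and neither was called (adjusted p = 1 and 0.999). Samples of the same slide were also compared. D3 mouse 17 exceeded D0 mouse 2 by 1.82, the first array of mouse 18 exceeded D0 mouse 3 by 1.83, mouse 19 exceeded D0 mouse 4 by 2.26, and the second array of mouse 18 exceeded the mean of D0 mice 1 and 5 by 2.62. With slide as a block the log2 fold change of Dbp was 2.11 or 2.25, depending on the array of mouse 18, with all dose groups and no call (adjusted p = 0.293 and 0.319).

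The probe for XR_033677 had the smallest p of all probes when every dose group was fitted. It was at -0.43, -0.75, -0.05, -0.74 and -0.76 in D0 mice 1 to 5 and at 0.96, 0.96, 0.94 and 1.07 in D3 mice 16 to 19. The D3 mice thus lay close together (SD 0.06, n = 4) and above every D0 mouse. The log2 fold change was 1.52 (SE 0.23; limma, adjusted p = 0.298 with all dose groups and 0.0185 with D0 and D3 alone). It was 0.74 at D1 and 1.37 at D2, and 11 of 13 treated mice exceeded the highest D0 mouse. Within slides the differences ranged from 1.11 to 1.81. With D0 and D3 alone its call held without D0 mouse 3 or 4 (adjusted p = 0.00733 and 0.0355) and was lost without each other mouse (0.0923 to 0.175). With the trend and robust settings of limma it was called with all dose groups (adjusted p = 0.0479).

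The other clock genes were then examined, beginning with the activators of D-boxes. Tef was at -1.30, -0.91, -0.61, -1.08 and -0.35 in D0 mice 1 to 5 and at 0.44, 0.60, 0.30 and 0.36 in D3 mice 16 to 19. The groups did not overlap (log2 fold change 1.33, SE 0.25, adjusted p = 0.99; 0.207 with D0 and D3 alone). Hlf was at -0.29, 0.36, 0.08, 0.41 and 0.97 at D0 and at 0.90, 1.00, 1.12 and 0.28 at D3. The D0 mean was exceeded by 3 of 4 D3 mice, and its groups overlapped (0.60, SE 0.18, adjusted p = 0.99).

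The nuclear receptors Nr1d1 and Nr1d2, which repress Arntl and Nfil3, were higher in all D3 mice than in any D0 mouse. Nr1d2 was at -0.81, -0.73, -0.37, -0.53 and -0.66 in D0 mice and at 0.16, 0.00, 0.57 and 0.47 in D3 mice (log2 fold change 0.92, SE 0.19). Nr1d1 was at -0.74, -0.23, -0.24, -0.26 and -0.04 in D0 mice and at 1.10, 0.64, 0.06 and 0.03 in D3 mice (0.81, SE 0.23). The D3 mice differed in Nr1d1, as mice 16 and 17 were clearly above mice 18 and 19, which lay near the highest D0 mouse. The arrays of mouse 18 gave -0.27 and 0.39 for Nr1d1, the first of them within the D0 range, and 0.78 and 0.35 for Nr1d2. Neither gene was called (adjusted p = 0.99 for both).

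Among the repressors of Arntl and Clock activity, Cry2 lay between -0.20 and 0.30 at D0 and between 0.19 and 0.76 at D3 (log2 fold change 0.50, SE 0.14), and all 4 D3 mice were above the D0 mean. Per1 lay between -1.20 and -0.37 at D0 and between -0.82 and -0.21 at D3 (0.46, SE 0.21). No D0 array measured Per2 or Per3 well above background, so no fold change is given for them. Per3 lay between -0.58 and -0.15 at D0 and between -0.15 and 0.05 at D3, without overlap in unrounded values, and was well above background on 3 of 5 D3 arrays. None of these genes was called (adjusted p = 0.99 for each).

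Of the opposite phase, Nfil3 was at -0.45, -0.81, -0.82, -0.31 and -0.32 in D0 mice 1 to 5 and at -1.74, -1.36, -0.78 and -1.78 in D3 mice 16 to 19. All 4 D3 mice were below the D0 mean, and mouse 18 overlapped the D0 range (log2 fold change -0.86, SE 0.22, adjusted p = 0.99). Arntl was at 0.71, 0.93, 0.14, 0.19 and 0.84 at D0 and at 0.06, 0.63, -0.47 and -0.14 at D3. The first array of mouse 18 gave 0.21 for Nfil3, above every D0 mouse, and the second -1.77, and the log2 fold change was -0.60 with the first array and -1.13 with the second. The groups overlapped in Arntl (-0.53, SE 0.25, adjusted p = 0.99). Under median centring in place of loess the values were -0.22 for Nfil3 and -0.04 for Arntl, and the median of all genes was 0.26.

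**Figure D2:**
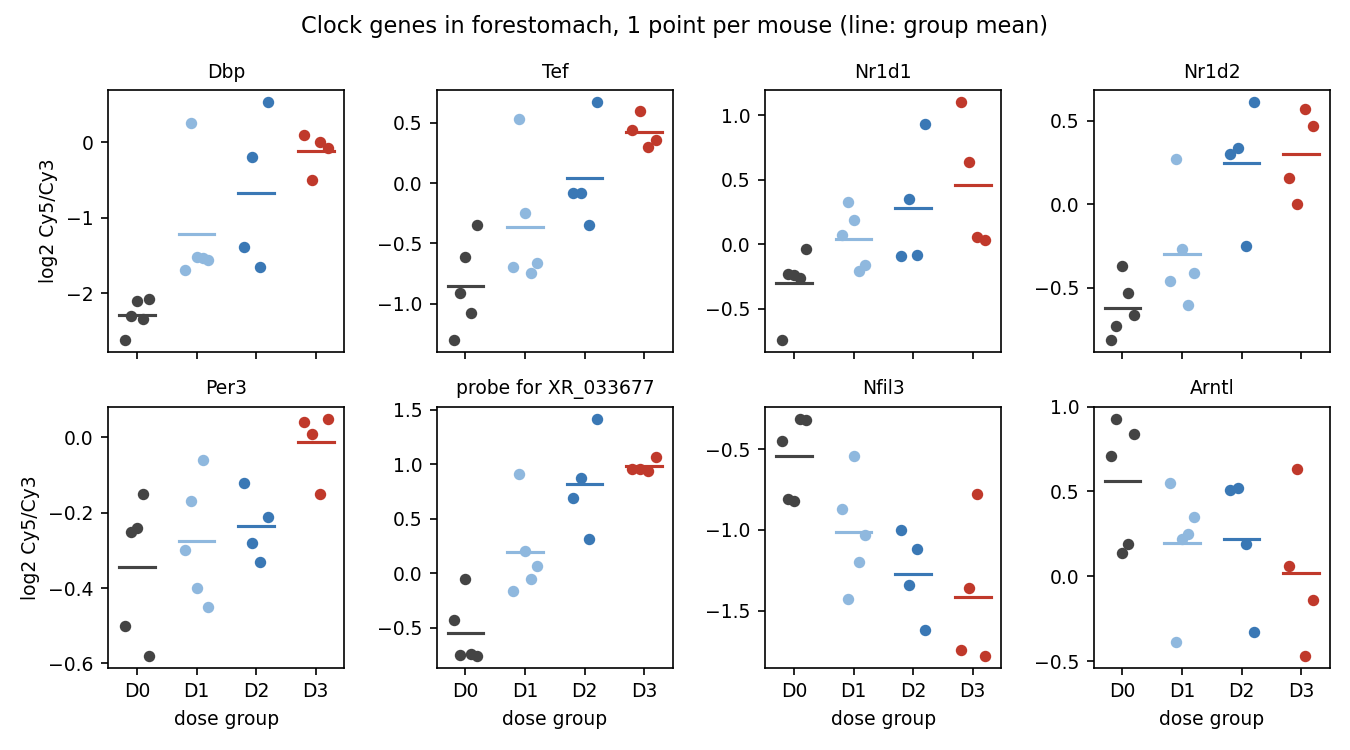
Log2 Cy5/Cy3 in each forestomach mouse for 7 clock genes and the probe for XR_033677, by dose group (each point is a mouse, mouse 18 as the mean of its arrays, and each line a group mean). Dbp at D3 lies between -0.50 and 0.10, above all D0 mice, while D1 mouse 7 (0.25) and D2 mouse 15 (0.53) reach that level in their groups.

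Of the 13 clock output and repressor genes, 11 were higher at D3 and 2 lower, and the median log2 fold change was 0.46. The same over all 20018 genes was -0.0039, with 49% of genes higher and a 5th to 95th percentile range of -0.28 to 0.36. Of the list, 8 genes had an unadjusted p under 0.05 and were higher, against 2.24% of all genes, and 0 were lower at that p, against 1.83%. In 5 of the 13 genes every D3 mouse was above every D0 mouse, against 0.465% of all genes, and in none was every D3 mouse below, against 0.619%. The 5 include Per3, which no D0 array measured well above background and whose groups met at -0.15, and Nr1d1, whose first mouse 18 array lay within the D0 range. Per3 is also among the 8. None of the 13 was called with all dose groups (limma, smallest adjusted p = 0.99). The list was chosen with earlier results of these data known, so these counts are a description and no independent support. The mean log2 ratio of the list was between -0.73 and -0.35 on the D0 arrays and between -0.05 and 0.27 on the D3 arrays, so no array overlapped. Of the 7 genes of the opposite phase 5 were higher and 2 lower (median 0.14), and only Nfil3 had an unadjusted p under 0.05. The median of the clock output list was 0.41 without the covariate, 0.48 on arrays with glandular stomach alone, and 0.87 under median centring. That setting moved the median of all genes to 0.26 and that of probes well above background in a dose group to 0.442. Mice were kept on a light and dark cycle. The hour at which each mouse was killed is not given in the sources used here, and its part in these values was not tested.

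The genes whose levels followed Dbp most closely over the 18 forestomach mice were sought among 9360 other genes well above background on every array. The 5 highest Pearson correlations belonged to Tef (r = 0.921), Cry2 (0.729), Cdk5rap1 (0.685), Hlf (0.651) and Aggf1 (0.647). Dbp was taken as the reference because it had the smallest p among named genes, no probe being called with all dose groups. These values share the arrays and the dose groups and are given as a description.

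The promoters of the clock output and repressor list were then searched, including those of genes whose groups overlapped. The 250 bases before the transcript starts were read from RefSeq (build GRCm38.p6) for E-boxes and D-boxes on both strands. The table held 13 starts of 11 of the 13 genes. The E-box CACGTG or its variant CACGTT stood before 7 of these 13 starts, in 6 of 11 genes, against 9.57% of 32851 starts of all genes. The 6 genes include Ciart and Bhlhe41, whose groups overlapped and which no D0 array measured well above background. Dbp, Nr1d2 and Per3, whose groups did not overlap, had no E-box match. The share thus describes the list and not the genes that differed. The D-box TTATGTAA or TTACGTAA stood before 1 of 13 starts, against 0.931% of all. The stretches of the non-overlapping genes with a match are shown, together with that of Dbp, 5′ to 3′ along the gene and with matches in capitals.
Tef (chr15:81802423-81802672, plus strand): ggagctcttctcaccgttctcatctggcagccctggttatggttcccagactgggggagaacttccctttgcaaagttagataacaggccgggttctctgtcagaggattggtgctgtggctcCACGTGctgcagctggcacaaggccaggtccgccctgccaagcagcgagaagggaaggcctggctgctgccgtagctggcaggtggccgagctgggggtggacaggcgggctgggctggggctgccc
Per3 (chr4:151044666-151044915, minus strand): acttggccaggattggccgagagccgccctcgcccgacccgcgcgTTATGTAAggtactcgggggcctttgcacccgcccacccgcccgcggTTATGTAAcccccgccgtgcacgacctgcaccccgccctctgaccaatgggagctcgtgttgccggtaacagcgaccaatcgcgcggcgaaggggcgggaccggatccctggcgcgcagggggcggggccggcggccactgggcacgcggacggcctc
Nr1d1 (chr11:98775378-98775627, minus strand): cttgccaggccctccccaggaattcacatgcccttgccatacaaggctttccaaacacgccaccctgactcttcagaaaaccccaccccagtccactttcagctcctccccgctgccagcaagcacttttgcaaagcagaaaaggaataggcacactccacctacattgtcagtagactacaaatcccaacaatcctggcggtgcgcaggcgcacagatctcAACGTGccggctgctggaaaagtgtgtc
Dbp (chr7:45704997-45705246, plus strand): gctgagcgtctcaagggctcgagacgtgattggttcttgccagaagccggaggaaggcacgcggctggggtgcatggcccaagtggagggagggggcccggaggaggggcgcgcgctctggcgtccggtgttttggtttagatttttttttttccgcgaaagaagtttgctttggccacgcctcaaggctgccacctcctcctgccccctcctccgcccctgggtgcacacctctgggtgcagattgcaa

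In Tef the capitals mark an E-box CACGTG that begins 127 bases before the start, and in Nr1d1 the reverse complement of the variant, 28 bases before the start. In Per3 they mark 2 copies of the D-box TTATGTAA, at 205 and 158 bases. No match was found in these windows of Dbp or Nr1d2, which says only that these letters are not in the window. A match is a description of the sequence and no evidence of binding.

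Genes outside the fixed lists were named by the smallest p in each direction among genes well above background throughout D0 or D3. After Dbp, Tef and Nr1d2, the 7 other genes with the smallest p among those higher at D3 were Ddx5, Tatdn3, Srsf5, Baz2b, Zfp943, Phf14 and Bclaf3. Ddx5, an RNA helicase, had a log2 fold change of 0.62 (SE 0.14). Srsf5, a splicing factor, was at -1.29, -0.67, -1.10, -0.64 and -1.09 in D0 mice and at -0.29, -0.06, -0.32 and -0.53 in D3 mice, without overlap (0.73, SE 0.18). In Tatdn3 (0.39) and Zfp943 (0.45) the groups also did not overlap, against 0.465% of all genes with every D3 mouse higher. This follows in part from the choice of genes by p, and nothing is read from it. The groups did overlap in Ddx5, Baz2b (0.49), Phf14 (0.50) and Bclaf3 (0.42). Under median centring the values of these 7 genes were higher, from 0.87 for Tatdn3 to 1.39 for Srsf5. The median of all genes under that setting was 0.26, and that of probes well above background in a dose group 0.442. The adjusted p was 0.99 for every gene named here.

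The genes with the smallest p among those lower at D3 were Slc15a4, Gm11559, Kdelr1, Uspl1, Nfil3, Med21, Scrn1, Cstf2, Tfam and Mrpl41. Slc15a4, a lysosomal transporter, was at 0.05, -0.25, -0.05, 0.10 and 0.07 in D0 mice and at -0.48, -0.44, -0.37 and -0.40 in D3 mice (log2 fold change -0.41, SE 0.09). Kdelr1, a receptor that returns proteins to the endoplasmic reticulum, was at -0.36, and Med21, a Mediator subunit, at -0.50. Tfam, the mitochondrial transcription factor, was at -0.39 and Mrpl41, of the mitochondrial ribosome, at -0.46. Uspl1 (-0.40), Gm11559 (-0.35), Scrn1 (-0.30) and Cstf2 (-0.26) completed the list. In 8 of the 10, all but Nfil3 and Mrpl41, no D3 mouse reached a D0 mouse, against 0.619% of all genes, a count that follows in part from the choice of genes by p and from which nothing is read. None was called (adjusted p = 0.99), and under median centring all but Nfil3 and Gm11559 (-0.08) turned to values between 0.08 and 0.24. That setting moved the median of all genes to 0.26 and that of probes well above background in a dose group to 0.442.

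Xenobiotic metabolism was examined next in 8 targets of AhR. Their median log2 fold change was 0.07 (0.32 under median centring, where that of all genes was 0.26). Of the 8, 5 were higher and 3 lower, with 0 at an unadjusted p under 0.05 and 0 without overlap. Cyp1a1, which metabolizes aromatic hydrocarbons, was at -0.23, 0.70, -0.04, 0.07 and 3.48 in D0 mice 1 to 5 and at 1.84, 1.75, 0.75 and 0.62 in D3 mice 16 to 19. The highest value was thus that of a control, D0 mouse 5, and the groups overlapped (0.57, SE 0.87, 95% interval -1.26 to 2.40). Cyp1a1 was well above background on 2 of 5 D0 and 4 of 5 D3 arrays, and its value moved with the processing, to 2.89 by the Feature Extraction ratio, 1.39 on arrays with glandular stomach, and 0.34 to 1.11 without single mice, the highest being that without D0 mouse 5. It was not called under any of these (adjusted p = 0.73 to 1). Cyp1b1, also highest in D0 mouse 5 (0.66), was between -1.11 and -0.53 in the other D0 mice and between -0.53 and -0.11 at D3 (0.24, SE 0.27; 0.74 under median centring). Ahrr, well above background on 2 of 5 D0 and 3 of 5 D3 arrays, was at 0.25 (SE 0.17; 0.96 by the Feature Extraction ratio) and Nqo1, a quinone reductase shared by AhR and Nrf2, at -0.38 (SE 0.30; 0.08 under median centring). Cyp1a2 was not well above background on any forestomach array of D0 or D3. The 13 targets of Nrf2, the regulator of antioxidant genes, had a median of -0.05, with 6 higher and 7 lower.

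Of 23 targets of p53, 15 were higher and 8 lower, with a median log2 fold change of 0.05, 0 genes at an unadjusted p under 0.05 and 0 without overlap. Under median centring the median was 0.58, against 0.26 for all genes and 0.442 for probes well above background in a dose group. Of the 23 targets, 18 were well above background on all D0 and D3 arrays. Cdkn1a, the inhibitor of cyclin-dependent kinases, was at 0.73, 0.64, 0.55, 0.49 and 0.71 in D0 mice 1 to 5 and at 0.61, 0.36, 0.66 and 0.43 in D3 mice 16 to 19. Its log2 fold change was -0.08 (SE 0.09, 95% interval -0.28 to 0.12), and 0.50 under median centring. Gdf15, a stress cytokine, was at -2.30, -3.32, -1.92, -1.56 and -2.36 at D0 and at -3.28, -3.43, -2.05 and -2.37 at D3 (-0.46, SE 0.40; 0.20 under median centring), and was well above background on 3 of 5 D0 and 4 of 5 D3 arrays. Mdm2, the ubiquitin ligase of p53, was at 0.09 (SE 0.11), and Ccng1, a cyclin induced by p53, at 0.19 (SE 0.26). Of 15 DNA repair genes 8 were higher and 7 lower (median 0.01). An unadjusted p under 0.05 was found in 2, both higher, against 2.24% of all genes higher at that p. Xpa, of nucleotide excision repair, was among the 2 (0.36, SE 0.15).

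**Figure D3:**
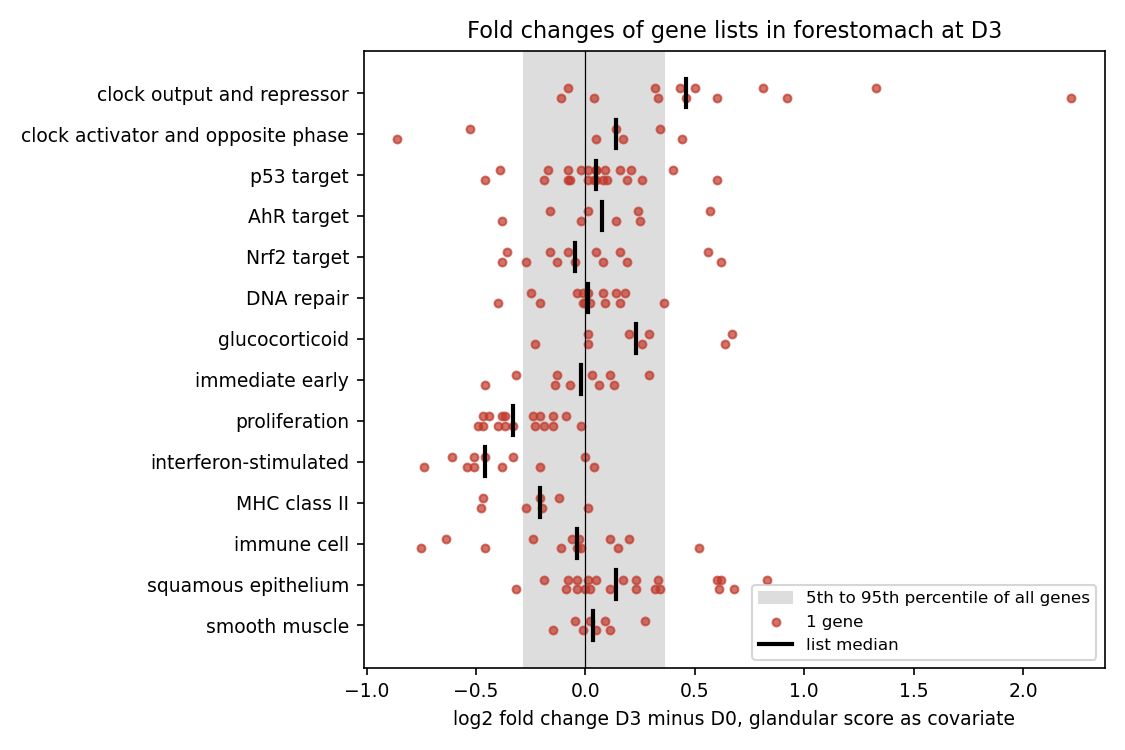
Log2 fold change D3 minus D0 in forestomach, with the glandular score as covariate, for the genes of 14 lists (each point is a gene, each black bar a list median). The grey band spans the 5th to 95th percentile of single genes, -0.28 to 0.36, and is no range for a median. The clock output list has a median of 0.46. Those of the proliferation (-0.33) and interferon (-0.46) lists become 0.27 and 0.07 under median centring, where the median of all genes is 0.26.

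Of 17 proliferation genes, 17 had a negative log2 fold change, and their median was -0.33. It was 0.27 under median centring, which moved the median of all genes to 0.26. The same setting moved the median of probes well above background in a dose group to 0.442. Of the 17 genes, 3 had an unadjusted p under 0.05, against 1.83% of all genes lower at that p. In 2, Ccna2 and Cdk1, the groups did not overlap, against 0.619%. Cdk1, the mitotic kinase, was at -2.04, -2.04, -1.97, -1.67 and -2.13 in D0 mice and at -2.55, -2.57, -2.38 and -2.22 in D3 mice 16 to 19. Its log2 fold change was -0.47 (SE 0.15), and 0.10 under median centring. Ccna2, cyclin A2, was at -0.49 (SE 0.19), and 0.11 under median centring. Mki67, the proliferation marker, was at -0.21 (SE 0.23), 0.40 under median centring and 0.06 with slide as a block and the second array of mouse 18. The mean of the list lay between -2.09 and -1.55 on D0 arrays and between -2.31 and -2.09 on D3 arrays.

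Of 11 interferon-stimulated genes 9 were lower, with a median of -0.46, which became 0.07 under median centring. That setting moved the median of all genes to 0.26 and that of probes well above background in a dose group to 0.442. Isg15, a ubiquitin-like antiviral protein, ranged from -2.57 to -1.36 at D0 and from -3.03 to -1.94 at D3 (-0.74, SE 0.26; -0.13 under median centring). Of this list 2 genes were lower at an unadjusted p under 0.05, Isg15 and Oasl2, against 1.83% of all genes. Oasl2, an antiviral protein, was the member without overlap (1 of 11, against 0.619% of all genes; -0.54, SE 0.20; 0.07 under median centring). Of 7 genes of MHC class II 6 were lower (median -0.21, and 0.11 under median centring). Of the 7, 3 were lower at an unadjusted p under 0.05, against 1.83% of all genes, and 1, Cd74, was without overlap, against 0.619%. Cd74, the invariant chain, was at 0.40, -0.21, -0.05, 0.12 and 0.07 in D0 mice and at -0.47, -0.45, -0.21 and -0.47 in D3 mice 16 to 19 (-0.48, SE 0.14; 0.11 under median centring). D0 mouse 2 and D3 mouse 18 met at -0.21. Markers of immune cells, 13 genes with list means between -0.38 and -0.07 at D0 and between -0.45 and -0.19 at D3, had a median of -0.04. Of the defining markers, Cd3d and Cd8a were not well above background on any array of D0 or D3, and Cd79b, of B cells, was well above it on 2 of 5 arrays of each group. The part of immune cell content in these values was not tested.

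**Figure D4:**
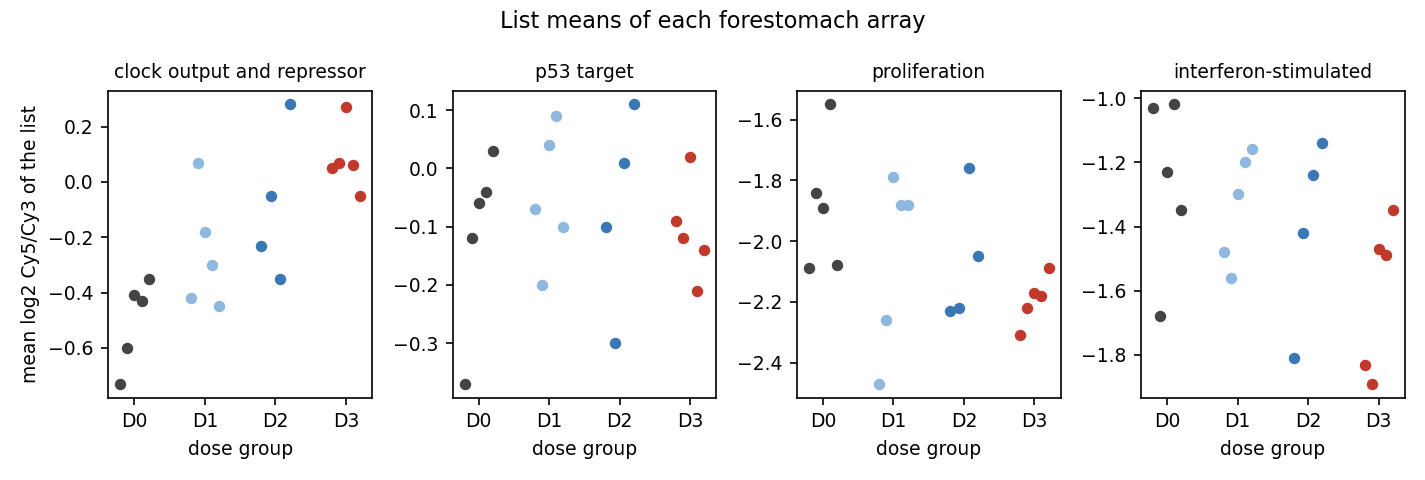
Mean log2 Cy5/Cy3 of 4 gene lists on each forestomach array, by dose group (each point is an array, with both arrays of mouse 18 shown). The clock output list separates D0 (highest -0.35) from D3 (lowest -0.05), whereas the p53 list overlaps, at -0.37 to 0.03 for D0 and -0.21 to 0.02 for D3.

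Other constituents of the tissue were compared between the groups. For smooth muscle the median log2 fold change was 0.03, with means of 3.63 to 4.86 on D0 arrays and 3.99 to 5.06 on D3 arrays. Fat markers had a median of -0.30, and Adipoq was well above background on 1 of 5 D0 arrays and no D3 array, the array being that of D0 mouse 2 (4.41). The pancreas list had a median of -0.07. The glucocorticoid list had a median of 0.23, with 7 of 8 genes higher and 0 at an unadjusted p under 0.05. The immediate early list had a median of -0.02 (0.16 with the first array of mouse 18 and -0.22 with the second), and its mean was -0.26 on the first array of mouse 18 against -1.94 to -1.23 on all other arrays of D0 and D3. The squamous list had a median of 0.14, with 15 genes higher and 7 lower.

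The response of the forestomach was set against that of the lung, from the same fit with both tissues. For the difference of the D3 responses 109 probes (0.196%) were called, 102 with the higher response in lung and 7 in forestomach. Of the 23 p53 targets 8 were called, all higher in lung, where the list had a median of 0.83. Cdkn1a was at 2.82 in lung, a difference of 2.90 (limma, adjusted p = 8.28e-11), and Gdf15 at 3.61, a difference of 4.07 (adjusted p = 5.31e-06). Ccng1 differed by 1.73 (adjusted p = 0.0125), a call lost without forestomach mouse 17 (0.0572). Mdm2 differed by 0.73 (adjusted p = 0.0536), and the test that pairs lung and forestomach of a mouse as a replicate block called it (0.82, adjusted p = 0.0374), as did the fits without D0 mouse 2 (0.0419) and D3 mouse 19 (0.0411). Under median centring the count fell to 2 probes, and among these genes Gdf15 was called (3.55, adjusted p = 0.00193) and Cdkn1a was not (2.66, adjusted p = 1). The count was 71 without forestomach mouse 16 and 65 without mouse 17.

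Of the 17 proliferation genes 7 were called for the difference, against 0.196% of all probes. All 7 were higher in lung, where the list had a median of 0.63. Birc5, an inhibitor of apoptosis needed for mitosis, differed by 1.85 (adjusted p = 3.56e-05), with 1.47 in lung and -0.38 in forestomach. Ccna2 differed by 1.65 (adjusted p = 0.000129), Mki67 by 1.36 (adjusted p = 0.0125) and Cdk1 by 1.14 (adjusted p = 0.00891). Under median centring none of the proliferation list was called. No member of the clock output list was called (0 of 13). Dbp was at 2.22 in forestomach and 2.24 in lung, a difference of 0.02 (SE 0.56, adjusted p = 1), and Tef at 1.33 and 0.99. A p of this size does not show that the responses were alike. Among genes named above, Baz2b (-0.73, adjusted p = 0.0146) and Bclaf3 (-0.64, adjusted p = 0.0132) were called with the higher response in forestomach. Without forestomach mouse 17 neither was called (adjusted p = 0.0690 and 0.0612), and Baz2b was also lost without D3 mouse 16 (0.0669) and D0 mouse 4 (0.0511). With the replicate block Baz2b was not called (adjusted p = 0.0523) and Srsf5 was (-0.83, adjusted p = 0.0291, against 0.195 without it).

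**Figure D5:**
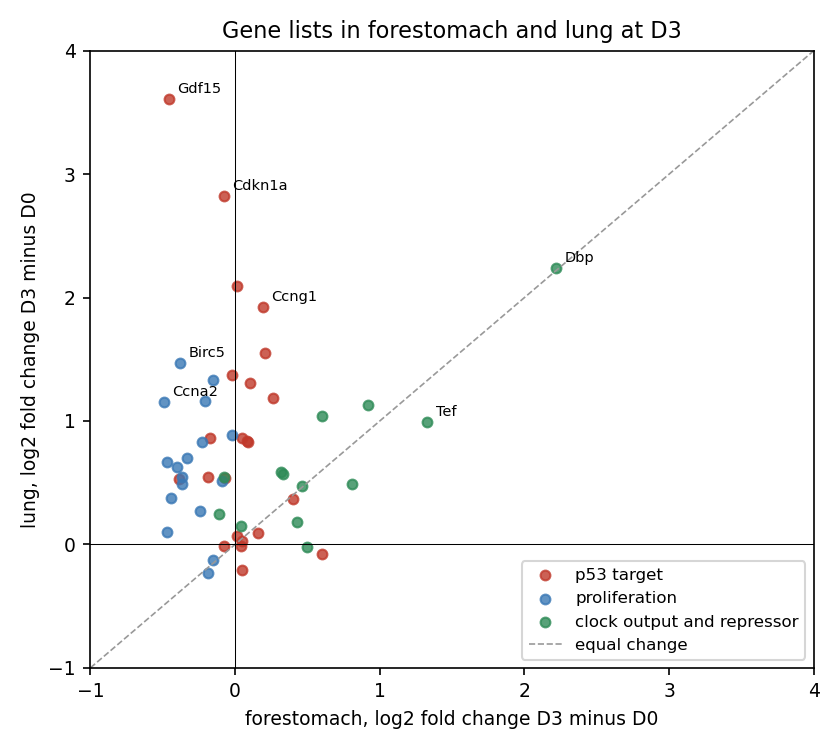
Log2 fold change D3 minus D0 in lung against that in forestomach for the genes of 3 lists (each point is a gene; the dashed line marks equal change). Cdkn1a and Gdf15 lie high in lung (2.82 and 3.61) and near or below 0 in forestomach (-0.08 and -0.46), while Dbp lies close to the line (2.24 and 2.22).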

How the data were processed

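Each array held tissue RNA in Cy5 and universal reference RNA in Cy3, with no dye swap. The authors deposited normalized log2 ratios as 1 values table, and scanner files with spot intensities from Agilent Feature Extraction 10.7.3.1, whose log10 ratio, deposited in the same files, was background-subtracted and dye-normalized by that program and served as an alternative. The table's scale is not stated. Set against log2 ratios normalized here by loess from the deposited median intensities, its forestomach columns had slopes of 0.99 to 0.997 and r of 0.995 to 0.998, with column medians of -0.0415 to -0.0265, so it was used as log2(Cy5/Cy3), the log base and direction resting on this comparison. Depth does not apply to arrays, and the number of mice limits the precision. Of 55681 probes, 26413 matched 1 symbol (20018 genes) through RefSeq accessions, and lists used the brightest probe of a gene.

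limma 3.58.1 in R 4.3.3 fitted 1 mean per dose group of the 18 forestomach mice and the centred glandular score, with Benjamini-Hochberg adjustment over all probes. P-values measure the spread between the mice as labelled. The script was tested on simulated data. Genes were named as the 10 with the smallest p in each direction, as members of lists by role, as any called gene, and as the 5 most correlated with Dbp. Members and lists were chosen with earlier results of these data known. D0 and D3 mice differ and were not paired. For the tissue difference, lung and forestomach carry the same mouse numbers, except lung D3 mouse 20, which has no forestomach array. Deviations from group means of the same number correlated at 0.0732 to 0.251 (median 0.191, 18 mice, over probes). The best match was the same number for 15 of 18 mice, and mouse 18 was not among these. Alternatives changed the covariate, samples, values, dim-probe filter, use of mouse 18, slide and scan day, and left out mice.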

Additional observations from a re-analysis of the deposited data

Results flagged for a closer look

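Of 92 groups of mice examined for the 46 genes named, 7 held 1 mouse whose gap to the next was large relative to the range of its group. Chance flags about 1 in 20, and a small gap in a narrow group can also be flagged. At D0 these were Cyp1a1 in mouse 5 (3.48, the next at 0.70), Ccng1 in mouse 1 (-0.03, the next at -1.03), Ddx5 in mouse 2 (-0.46, the next at -0.89) and Mrpl41 in mouse 5 (-0.80, the next at -0.20). At D3 they were Per2 in mouse 18 (0.08, the next at -0.44), Cd74 in mouse 18 (-0.21, the next at -0.45) and the probe for XR_033677 in mouse 19 (1.07, the next at 0.96). The D3 values of XR_033677 lay close together.

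The difference between the responses of lung and forestomach at D3 was called for 9 of the genes named (limma, adjusted p of at most 0.05), against 0.196% of all probes. Under median centring only Gdf15 of these stayed called. The calls of Ccng1, Baz2b and Bclaf3 were lost without forestomach mouse 17. The lung response was higher by 4.07 for Gdf15, 2.90 for Cdkn1a, 1.85 for Birc5, 1.73 for Ccng1, 1.65 for Ccna2, 1.36 for Mki67 and 1.14 for Cdk1. The lung response was lower for Baz2b (-0.73) and Bclaf3 (-0.64).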

How the results depend on the processing

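With all dose groups fitted, 0 probes were called without any 1 mouse and under the planned settings, except for 1 under the trend and robust settings of limma. With D0 and D3 alone 3 were called with and 3 without the score. Chosen after seeing the data were the fits of D0 and D3 with mouse 18 by its first array (3 with and 3 without the score), by its second (2 and 3), and without each mouse (0 to 3). The tissue difference gave 2 calls under median centring, also added after seeing the data, and 65 to 137 without single forestomach mice, against 109. With the mouse as a replicate block it gave 140, and of the named genes the block changed only the calls of Mdm2, Baz2b and Srsf5. D0 and D3 are different mice, so mouse numbers do not pair them; slides held both groups, and with slide as a block 0 probes were called. Median centring moved the median of probes above background to 0.442 and turned the sign of Slc15a4 (0.18), Kdelr1 (0.19), Uspl1 (0.21), Med21 (0.15), Scrn1 (0.11), Cstf2 (0.24), Tfam (0.15), Mrpl41 (0.08), Cdkn1a (0.50), Gdf15 (0.20), Nqo1 (0.08), Ccna2 (0.11), Cdk1 (0.10), Birc5 (0.18), Mki67 (0.40), Cd74 (0.11), Oasl2 (0.07) and Krt5 (0.50). Other turns were Mki67 with slide as a block and the second array of mouse 18 (0.06), Krt5 by the Feature Extraction ratio (0.00) and without D0 mouse 4 (0.01, within -0.19 to 0.01 over mice left out), and Mdm2 with D0 and D3 alone without D0 mouse 1 (0.00). The cause was not tested. The number of mice and the probes near background limit what could be detected.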
